A study of Mus musculus and Rattus norvegicus with 6 samples.

Results

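The rat table of a small RNA sequencing study of the retina lists 764 mature miRNA names, and 137 of them carry a number of 1000 or more (leaving out miR-1193, miR-1197 and miR-3072). These 137 names were taken as the set described here. They stand for 99 hairpin numbers, from miR-1188 to miR-7578. Of the 137, 28 have a row of the same name in the mouse table, which lists 1915 names, and 109 do not. The choice rests on the names alone and on no measured value. The mouse group was 3 libraries from retinas of C57BL/6 animals and the rat group 3 libraries from retinas of Sprague Dawley animals. Animals of both groups were wild type and 9 weeks old, the labels name no treatment, and the retina, the neural layer lining the back of the eye, was dissected and extracted for total RNA with small RNA. Strain changes together with species, so their parts cannot be told apart. The labels speak of biological samples in triplicate without tying each to its own animal, so the p-values given here speak only to differences among these particular libraries, part of which may be technical. Since whole retinas were used, more cells that make a miRNA and more of it per cell cannot be told apart.

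A miRNA is cut from a hairpin, and either side of the hairpin (the 5p or the 3p arm) can give the mature strand that guides silencing proteins to messenger RNAs. Pairing rests mainly on the seed, bases 2 to 8 of the mature strand. The miRNA registry gives numbers in the order in which sequences are entered, so high numbers belong mostly to miRNAs found late, by deep sequencing. Many come from unusual precursors: mirtrons, which are whole short introns released by splicing, small nucleolar or Cajal body RNAs, exons of host messages, and the strand opposite a known miRNA. Low copy number and uneven conservation between species are typical of them.

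The mature sequences below are the mouse ones, from RefSeq (GRCm38.p6), since the rat sequences behind the rat names were not used here. RefSeq listed 24 of the 28 names found in both tables. Capitals mark the seed. The miR-1843 sequences are shown because miR-1843a and miR-1843b, hairpins of 1 number that together lead the set in counts, differ by a shift of the mature strand.
miR-1843a-5p: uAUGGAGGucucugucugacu
miR-1843b-5p: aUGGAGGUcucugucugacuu
miR-1843a-3p: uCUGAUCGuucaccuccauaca
miR-1843b-3p: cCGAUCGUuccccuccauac
The 5p strands of miR-1843a and miR-1843b share a run of 20 bases, which starts at base 2 of the former and at base 1 of the latter, so their seeds differ although nearly all their bases are the same. The longest unbroken run common to their 3p strands is 9 bases, which starts at base 13 of miR-1843a-3p and at base 12 of miR-1843b-3p. Bases outside this run were not compared, so its length is no measure of how alike the whole 3p strands are.

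The next sequences belong to other members described at length in the comparison of the species or arms, and to miR-24-3p, a partner on the opposite strand.
miR-3068-3p: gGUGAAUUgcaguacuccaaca
miR-3068-5p: uUGGAGUUcaugcaaguucuaacc
miR-1839-5p: aAGGUAGAuagaacaggucuug
miR-1247-5p: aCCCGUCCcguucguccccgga
miR-1298-5p: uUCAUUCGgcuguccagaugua
miR-1912-3p: cACAGAACaugcagugagaacu
miR-1224-5p: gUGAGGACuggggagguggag
miR-3064-5p: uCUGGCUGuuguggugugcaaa
miR-3085-3p: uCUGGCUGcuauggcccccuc
miR-3074-5p: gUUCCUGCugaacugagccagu
miR-24-3p: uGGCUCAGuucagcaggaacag
The mouse strands miR-3064-5p and miR-3085-3p start with the same 8 bases and so share a seed, although their hairpins lie on different chromosomes (11 and 19). The strand miR-3074-5p is encoded opposite miR-24: a run of 20 of its 22 bases is the reverse complement of miR-24-3p.

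Each library held 24169628 to 30514632 counts, where 3 counts, the limit that a count of 0 allows, correspond to at most 0.1241 CPM (counts scaled to a fixed library total). Such limits and the intervals given later treat every read as a separate molecule and reflect counting error alone. The retinal identity of the libraries showed in the photoreceptor miRNA miR-183-5p, at 145781 CPM or more in each rat and mouse library, and in the neuronal miR-124-3p, at 6284 CPM or more. Rat library r1 stood apart from r2 and r4. Of the 412 other names with at least 10 counts in each rat library, r1 had the lowest CPM for 337, with a median log2 ratio of -0.77 to the mean of r2 and r4. Its count of the lens and cornea miRNA miR-184 was 226444, against 44542 in r2 and 31551 in r4. The other lens and cornea miRNA examined, miR-205, went the other way, with 114, 304 and 469 counts in r1, r2 and r4. In mouse miR-184-3p varied too, at 34699, 9399 and 27784 counts in m1, m3 and m4. The red blood cell miRNA miR-451-5p was at 16, 90 and 51 counts in r1, r2 and r4. Of the 40 members with at least 10 counts in each rat library, r1 was lowest for 25 and highest for 12 (median log2 ratio -0.41). Results that lean on r1 are given with and without it.

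Few of the high-numbered names were well represented in the rat retina. Of the 137, 40 (29.2%) reached at least 10 counts in each of the 3 rat libraries, 18 reached 100 and 50 were at 0 in all 3. Of the 627 other names in the rat table, 412 (65.7%) reached 10 counts and 71 were at 0. The median level was 0.0644 CPM in the set and 6.41 CPM in the other names. Together the 137 names held 0.227% of all counts in r1, 0.253% in r2 and 0.248% in r4 (mean 0.243% ± 0.0138, SD, n = 3).

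Detection differed with the block of numbers. Among the names from miR-1188 to miR-1956, 15 of 24 reached 10 counts in each library. Among those from miR-3064 to miR-3473, 9 of 20 did. Of the 66 names from miR-3541 to miR-3596, 8 reached 10 counts and 37 were at 0 in all 3 libraries. Of the 26 names from miR-5132 to miR-7578, 8 reached 10 counts and 7 were at 0. The name miR-2985 had 3, 10 and 15 counts in r1, r2 and r4. Names that also have a row in the mouse table reached 10 counts in 16 of 28 cases, and names without one in 24 of 109.

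**Figure D1:**
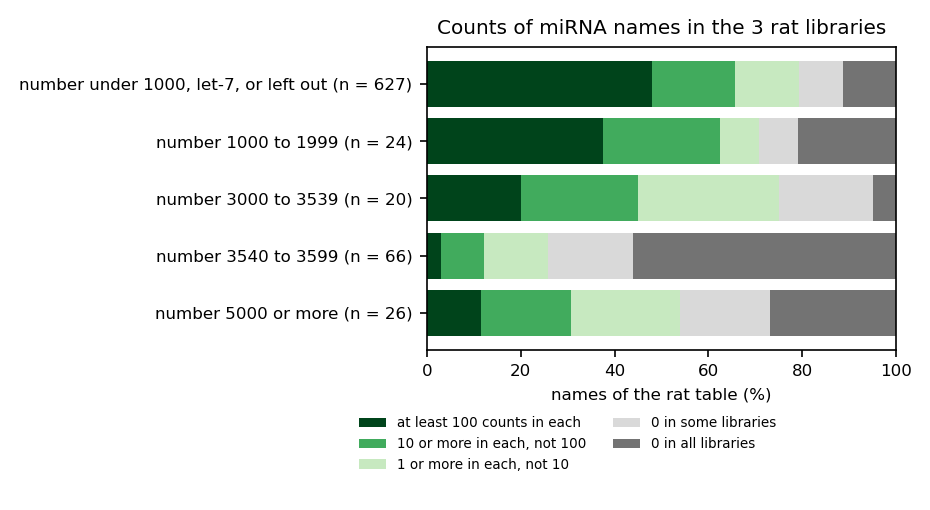
Share of the miRNA names of the rat table (x axis, %) by the lowest count reached over the 3 rat libraries, for names numbered 1000 or more in 4 blocks of numbers and for all other names (y axis, n in brackets; miR-2985 is not drawn). The dark grey part, names at 0 in all libraries, is widest in the block from miR-3541 to miR-3596 (37 of 66). The darker green parts, names with at least 10 counts in each library, shrink down to that block. Together they make 65.7% of the other names and 62.5%, 45.0% and 12.1% of the first blocks, then 30.8% of the last block.

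The counts of the set were concentrated in few hairpins. The 10 most abundant names held 87.5% of the set's counts, and the 6 names of the miR-1843 and miR-1839 hairpins alone held 56.3%. The most abundant, miR-1843a-5p, stood at 566, 636 and 646 CPM in r1, r2 and r4 and ranked 74 in the whole rat table. It was followed by miR-1839-5p at 532, 454 and 364 CPM and miR-1843b-5p at 181, 245 and 239 CPM.

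In mouse, Mir1843a (chr12:80391613-80391677, minus strand, GRCm38) lies within the exon of Scarna3b, a small Cajal body RNA gene that sits in an intron of Dcaf5. Mir1843b (chr1:159340358-159340423, plus strand) overlaps an end of Scarna3a, in an intron of Cop1, which encodes a ubiquitin ligase. Small Cajal body RNAs guide the chemical modification of spliceosomal RNAs. Mir1839 (chr7:81529916-81529988, plus strand) lies in the long non-coding gene 2900076A07Rik, intronic in 2 of its 3 transcripts.

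After these came miR-1298 (206, 163 and 183 CPM in r1, r2 and r4), miR-3068-3p (145, 187 and 205 CPM) and miR-3099 (119, 210 and 201 CPM). Then followed miR-3559-5p (108, 66.8 and 97.7 CPM), miR-3068-5p (53.7, 94.0 and 92.4 CPM) and miR-1843a-3p (54.2, 83.1 and 75.4 CPM). The mirtron product miR-1224 completed the 10, with 46.8, 65.9 and 57.6 CPM. Among the 10, r1 was the highest library for miR-1839-5p, miR-1298 and miR-3559-5p and the lowest for the other 7. Neighbours from miR-1298 to miR-3099 (means 184, 179 and 176 CPM) did not differ beyond their spread over libraries (SD 21.5, 30.6 and 50.2 CPM).

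**Figure D2:**
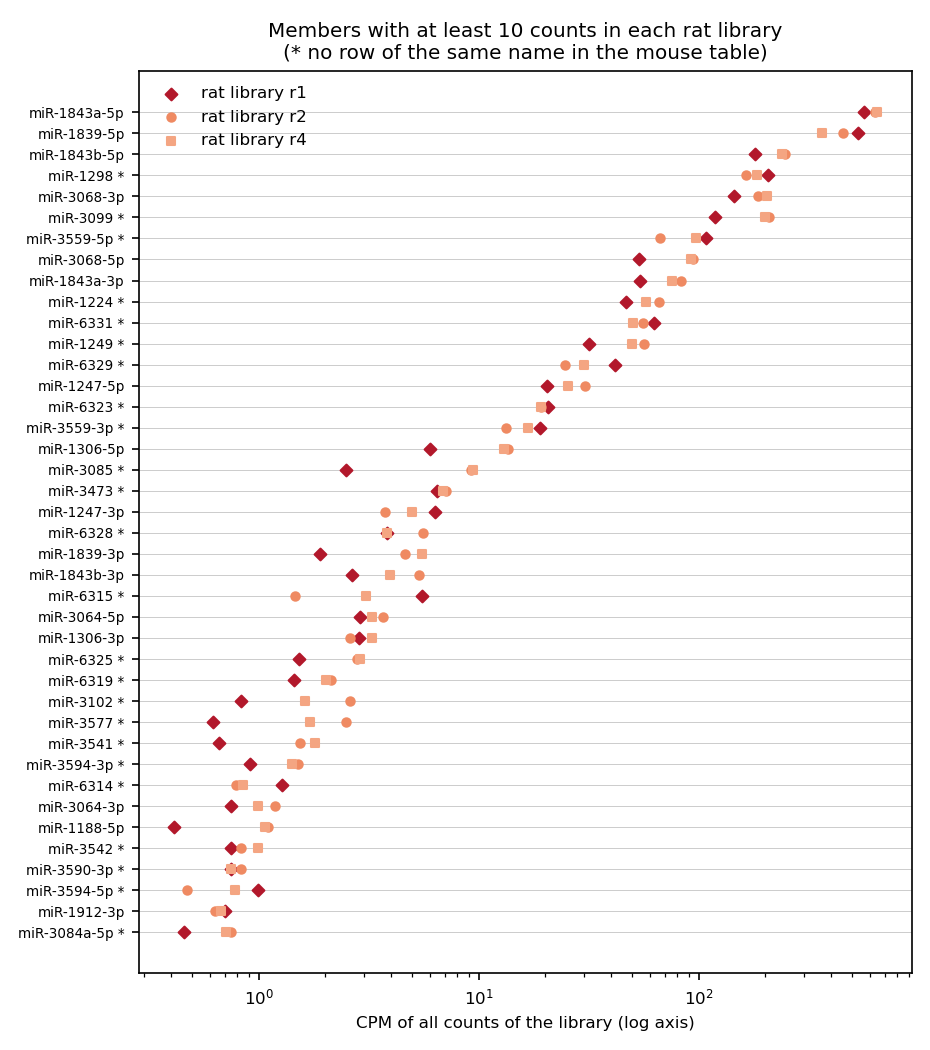
Level of the 40 high-numbered miRNAs with at least 10 counts in each rat library (x axis, CPM of all counts, log axis), 1 point per rat library. Levels run from miR-1843a-5p, at 566 to 646 CPM, down to under 1 CPM, and r1 (diamonds) lies left of r2 and r4 for 25 names and right of them for 12.

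Several of the better represented names have no row of that name in the mouse table. The 5 most abundant of these in the rat retina were miR-1298, miR-3099, miR-3559-5p, miR-1224 and miR-6331. Of these, miR-1298, miR-3099 and miR-1224 are named by arm in mouse and are compared with the mouse arms further on. The name miR-6331 stood at 62.5, 55.8 and 50.5 CPM in r1, r2 and r4, and the less abundant miR-6323 at 20.6, 19.2 and 19.1 CPM, with a coefficient of variation of 4.30%. Both levels were close in the 3 libraries, r1 included. The hairpin of miR-3559 gave both arms, with a 5p share of 85.1%, 83.3% and 85.4% of its counts. In 2 other names r1 was far from r2 and r4, and they were singled out after their values were seen. The name miR-6321 had 4 counts in r1 against 1027 in r2 and 1195 in r4, and miR-6324 had 107 counts in r1 against 3 and 2. Both names therefore fall outside the 40 with at least 10 counts in each library. Beside these stand the r1 values of miR-184 and miR-205 given above, which lie in opposite directions. The part of other tissue in miR-6321 and miR-6324 was not tested.

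Some rows of related names were identical. The rows miR-3084a-3p, miR-3084b-3p and miR-3084d held the same counts in every rat library (0, 9 and 11), and so did miR-3084b-5p and miR-3084c-5p (8, 10 and 12). At counts this low unrelated names can match too, and whether these names share reads was not tested; they are not treated as separate measurements. In mouse the 2 copies of Mir3084 overlap small nucleolar RNA genes (Snora19 and Gm23658) in introns of Eif3a and Cbwd1.

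To ask which of these miRNAs differ between the retinas of the species, the 542 names found in both tables were fitted together with edgeR's quasi-likelihood test. Levels in this comparison are CPM of the shared names after TMM scaling, and calls were made where the p adjusted over all names tested (Benjamini-Hochberg) was under 0.05. Of the 28 shared members, 17 passed the filter on low counts. Of these, 13 passed in all libraries of both species, 3 through their rat libraries alone (miR-1188-5p, miR-1912-3p and miR-3064-3p) and miR-5132-5p through some libraries of each, so the counts that follow describe the 17 and not the set. Of the 17, 10 were called, 7 higher and 3 lower in rat, and 8 of these calls fall among the 13. Among all 398 names tested, 50% were called, 25.6% higher and 24.4% lower. The libraries of the species did not overlap for 14 of the 17, against 59.8% of all tested. The median log2 difference (rat minus mouse) was 0.62 in the 17 and 0.08 in all tested, and the median size was 1.23 and 0.63. All these values of the 17 include the 3 names that passed through rat alone. Their log2 differences were 0.75 (miR-1188-5p), 4.43 (miR-1912-3p) and 1.77 (miR-3064-3p), and the 2 of them that were called were called higher. The balance of directions in the 17 is therefore not read as a lean of the set towards rat. Scaled by library totals alone, 9 of the 17 were called higher and 2 lower, 127 of the 170 names called in all were higher (102 of 199 with TMM), and the median of all names tested moved up by 0.36, so differences under this size depend on the scaling.

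**Figure D3:**
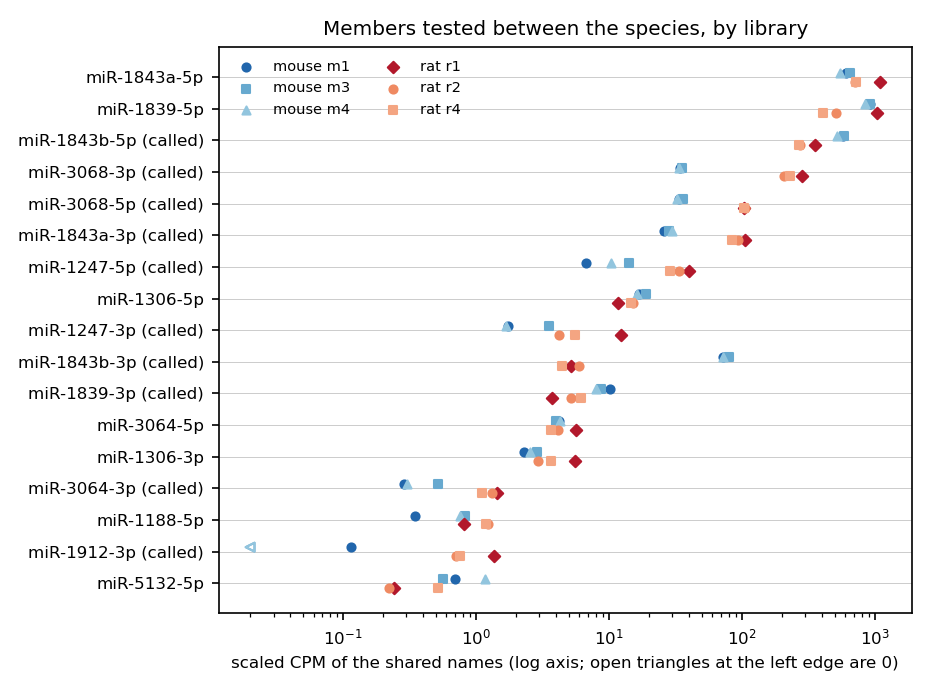
Scaled CPM (x axis, log axis) of the 17 members tested between the species, 1 point per library (blue mouse, red rat). All 3 rat libraries lie right of the mouse libraries for miR-3068-3p, miR-3068-5p and miR-1843a-3p and left of them for miR-1843b-3p, and the group means of these 4 differ by 3.06-fold or more.

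The hairpin miR-3068 gave the clearest rise by both arms. In mouse it lies in an intron of Alkbh1, which encodes an enzyme that removes methyl groups from nucleic acids (chr12:87437679-87437757, minus strand). The 3p strand stood at 34.1, 35.2 and 33.6 CPM in m1, m3 and m4 and at 283, 208 and 230 CPM in r1, r2 and r4. The rat libraries lie far above the mouse libraries, 7.01-fold on average (log2 difference 2.81 ± 0.17, SE; edgeR adjusted p = 1.80e-06). The 5p strand stood at 33.4, 36.4 and 32.5 CPM in mouse and 105, 105 and 104 CPM in rat. It rose 3.06-fold (log2 difference 1.61 ± 0.15; edgeR adjusted p = 2.34e-05), with no overlap between the species. The close rat values of the 5p strand came with the scaling. In CPM of all counts this strand was at 53.7, 94.0 and 92.4 in r1, r2 and r4. The 3p strand was at 145, 187 and 205 CPM there, so r1 was its lowest rat library before scaling and its highest after. Without r1 the log2 differences were 2.68 (3p) and 1.61 (5p).

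The miR-1843 names moved in opposite directions. For miR-1843b-3p, mouse libraries m1, m3 and m4 were at 71.8, 80.6 and 71.7 CPM and rat libraries r1, r2 and r4 at 5.16, 5.96 and 4.45 CPM. This was the largest fall among the 17, 14.4-fold (log2 difference -3.85 ± 0.19; edgeR adjusted p = 5.92e-07). The arm of the same hairpin that dominates, miR-1843b-5p, fell less, from 564 CPM ± 34.4 to 298 CPM ± 47.1 (SD, n = 3 each; log2 difference -0.92 ± 0.16; edgeR adjusted p = 0.00139). By contrast miR-1843a-3p rose 3.35-fold, from 26.1, 28.4 and 29.9 CPM in m1, m3 and m4 to 106, 92.8 and 84.4 CPM in r1, r2 and r4 (log2 difference 1.74 ± 0.16; edgeR adjusted p = 2.80e-05). The difference of miR-1843a-5p was 0.49 ± 0.20 and was not called (edgeR adjusted p = 0.0674). It was called at 0.78 with library totals alone, at 0.26 without r1 and at 0.61 without r2.

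Summed over the a and b names, the species were close. The sum of the 5p strands was 1167, 1241 and 1080 CPM in the mouse libraries and 1456, 983 and 999 CPM in the rat libraries. Its log2 difference was -0.02 ± 0.19 and was not called (edgeR adjusted p = 0.930); without r1 it was -0.24 and was called (edgeR adjusted p = 0.00667). The sum of the 3p strands was 96.3, 110 and 102 CPM in the mouse libraries and 111, 98.7 and 89.6 CPM in the rat libraries, a log2 difference of -0.04 ± 0.15 (edgeR adjusted p = 0.829; -0.14 without r1). What differed was the division between the names. The b name held 48.4% ± 0.757 (SD, n = 3) of the 5p sum in mouse against 26.4% ± 1.91 for rat. Of the 3p sum it held 72.6% ± 1.78 and 5.23% ± 0.714. How reads that match both names were counted is not given in the sources used here, and the part of counting in this division was not tested. The summing was added after the data were seen.

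Of the miR-1839 strands, the minor one was called lower in rat. This strand miR-1839-3p stood at 10.2, 8.67 and 8.02 CPM in m1, m3 and m4 and at 3.71, 5.16 and 6.16 CPM in r1, r2 and r4. All rat libraries lie below the mouse libraries, and the fall was called (log2 difference -0.82 ± 0.24; edgeR adjusted p = 0.0195). The call was lost without m1, m3 or m4 (-0.71, -0.85 and -0.87) and with library totals alone (-0.43). For the abundant miR-1839-5p, mouse libraries were at 925, 923 and 847 CPM and rat libraries at 1037, 507 and 408 CPM. Here r1 lay above all mouse libraries and r2 and r4 below them. The log2 difference was -0.47 ± 0.31 (edgeR adjusted p = 0.243), and without r1 it was -0.98 and called (edgeR adjusted p = 3.93e-06).

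Both strands of miR-1247, from the imprinted Dlk1-Dio3 region, whose genes are expressed from the maternal or the paternal chromosome only, were called higher in rat. In mouse Mir1247 sits in an exon of Dio3os, the RNA antisense to the thyroid hormone deiodinase gene Dio3 (chr12:110278048-110278129, minus strand). Its 5p strand stood at 6.72, 14.1 and 10.3 CPM in m1, m3 and m4 and at 39.9, 33.8 and 28.7 CPM in r1, r2 and r4. It rose 3.28-fold with no overlap (log2 difference 1.71 ± 0.28; edgeR adjusted p = 0.00102). The 3p strand rose too, from 2.32 CPM ± 1.07 to 7.38 CPM ± 4.35 (SD, n = 3 each; log2 difference 1.63 ± 0.46; edgeR adjusted p = 0.0168). This rise leaned on r1, where the level was 12.3 CPM, the other rat libraries being at 4.19 and 5.60 CPM. Leaving r1 out gave 1.08, still called, while the call was lost without m1 or m4 (1.48 and 1.46). In the same region miR-1188-5p, within an intron of the non-coding RNA gene Rian, differed by 0.75 ± 0.37 and was not called (edgeR adjusted p = 0.123).

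Several members come from introns of Htr2c, the gene of a serotonin receptor. In mouse Mir1912 (chrX:147009441-147009527) and Mir1298 (chrX:147064905-147065002), both on the plus strand, lie in 1 large intron. For miR-1912-3p the counts were 2, 0 and 0 in m1, m3 and m4 and 17, 16 and 19 in r1, r2 and r4. The ratio of the summed CPM was 29.0 (95% interval 7.63 to 246, exact binomial, counting error only), with every rat library above every mouse library. It passed the filter through its rat counts alone, so the call by edgeR is not used as support. The rat name miR-1298 gives no arm, so it was set against the sum of both mouse arms, a join chosen after the data were seen. The mouse sum was 38.8, 43.1 and 37.9 CPM of all counts in m1, m3 and m4, of which miR-1298-5p made the greater part, and the rat name was at 206, 163 and 183 CPM in r1, r2 and r4. Rat libraries exceeded the sum of both mouse arms 4.62-fold on average. In the fit with this join, where 50.8% of 429 names were called, the log2 difference was 2.08 ± 0.29 (edgeR adjusted p = 0.000857), and 1.67 without r1. A neighbour in the same host gene that is no member, miR-448-3p, had 34, 42 and 26 counts in m1, m3 and m4 and 90, 103 and 120 in r1, r2 and r4. Its log2 difference was 1.59 ± 0.29 (edgeR adjusted p = 0.00209), and was looked up after these values were seen. A further neighbour, miR-764, was scarce: miR-764-5p had 1, 0 and 4 counts in mouse and 6, 4 and 7 in rat, and miR-764-3p had 1, 1 and 1 in mouse and 0, 2 and 2 in rat. Another miRNA of this host gene, miR-1264, is not listed in the rat table, so it could not be compared.

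Other hairpins lie in exons or beside protein-coding sequence. Mir1306 is exonic in Dgcr8, which encodes the partner of Drosha in cutting miRNA hairpins (chr16:18284239-18284317, minus strand). Neither of its strands was called: miR-1306-5p differed by -0.32 ± 0.19 (edgeR adjusted p = 0.181) and miR-1306-3p by 0.62 ± 0.29 (edgeR adjusted p = 0.103). With library totals alone miR-1306-5p differed by 0.05, so its direction depends on the scaling, and miR-1306-3p was called at 0.91. Without r2 miR-1306-3p was called too, at 0.82. Mir3064 lies in Ddx5, an RNA helicase gene (chr11:106782693-106782759, minus strand), intronic in 1 of 4 transcripts. Its strand miR-3064-3p had 5, 10 and 6 counts in m1, m3 and m4 and 18, 30 and 28 in r1, r2 and r4. The ratio of the summed CPM was 4.03 (95% interval 2.46 to 6.89, exact binomial, counting error only). It too passed the filter through its rat counts alone, and its call is not used as support. The main strand miR-3064-5p differed by 0.08 ± 0.24 (edgeR adjusted p = 0.806; -0.11 without r1). The last of the 17, miR-5132-5p, from an exon of the kinase gene Irak1, differed by -1.23 ± 0.46 (edgeR adjusted p = 0.0521), and was called without r4 at -1.79.

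**Figure D4:**
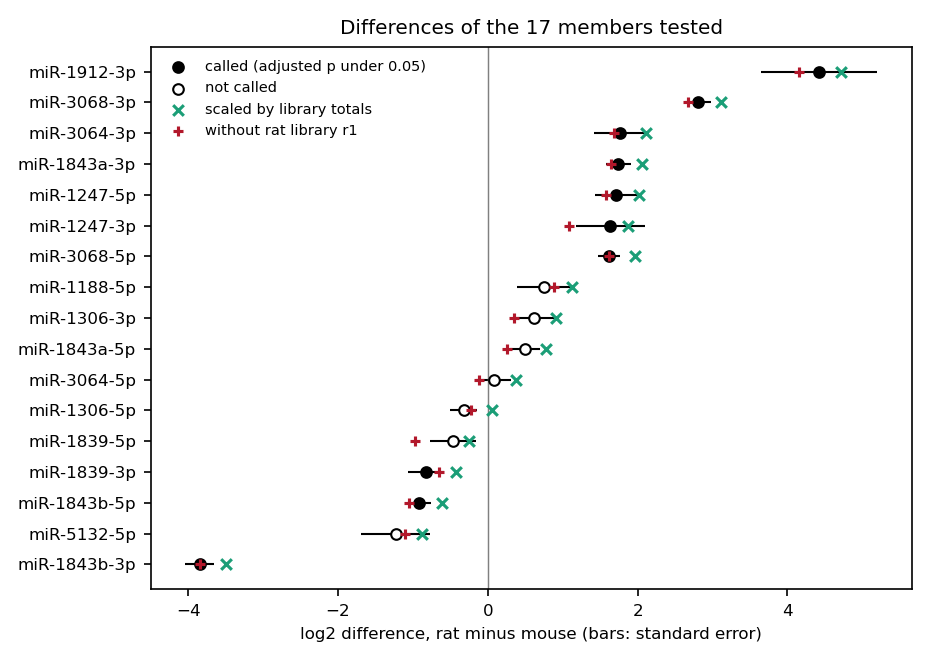
Log2 difference, rat minus mouse (x axis), of the 17 members tested, with the standard error as bars; filled points were called and open points were not. Crosses give the value scaled by library totals and plus signs the value without rat library r1. The crosses lie right of the points for all 17, and miR-1306-5p changes side of 0.

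Mirtrons could be compared only across unlike names. In mouse the hairpins Mir1224 and Mir3547 fill their introns exactly, with 0 bases between hairpin and exon at either end: Mir1224 (chr16:20604452-20604536, plus strand) is the whole 85-base intron of Vwa5b2, and Mir3547 (chr17:25245551-25245638, minus strand) the whole 88-base intron of Baiap3. The rat name miR-1224 was at 46.8, 65.9 and 57.6 CPM of all counts and the sum of both mouse arms at 18.03, 18.22 and 18.91 CPM. The rat level was 3.09-fold that of the mouse sum, so it exceeded either mouse arm (log2 difference in the joined fit 1.42 ± 0.15; edgeR adjusted p = 0.000190). For miR-3547 the rat counts were 9, 26 and 16 and the mouse sum was 1 count in each library. This name also entered the joined fit through its rat counts alone, so its call is not given. In the list of mirtrons fixed for this work, miR-3102 went the other way: the rat name was at 20, 66 and 46 counts and the mouse strand miR-3102-3p at 241, 225 and 201. Joined to that strand it differed by -2.48 ± 0.24 (edgeR adjusted p = 0.000115, where 47.9% of 430 names joined by looser names were called). Another mouse strand, miR-3102-3p.2-3p, had 32, 34 and 36 counts, within the range of the rat counts, and which strand the rat name stands for was not tested.

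For other names without an arm in rat, the same join to the mouse sum gave both directions. The miRNA miR-3099, whose mouse hairpin lies in an intron of Usp29 (chr7:6803587-6803670, plus strand), was at 119, 210 and 201 CPM of all counts in rat and 95.2, 101 and 112 CPM in mouse. After scaling it rose modestly (log2 difference 0.53 ± 0.11; edgeR adjusted p = 0.00619). For miR-3085, which shares its mouse seed with miR-3064-5p, r1 was at 2.48 CPM, close to the mouse sum of 2.06 to 2.33 CPM, and r2 and r4 were at 9.21 and 9.43 CPM. Its log2 difference was 1.37 ± 0.33 (edgeR adjusted p = 0.0110), and the call was lost without m4 (1.31). The difference of miR-1249 was 0.21 ± 0.12 and was not called (edgeR adjusted p = 0.174), though it was called without r1, also at 0.21. For miR-3572, from an exon of Cnot3, the difference was -1.06 ± 0.30. It passed the filter through its mouse counts alone, so its call is not given. The difference was -1.02, -0.999 and -1.17 without m1, m3 or m4, and -0.86, -1.27 and -1.12 without r1, r2 or r4. With library totals alone it was -0.75.

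Of the members encoded opposite a known miRNA, those facing miR-24 and miR-338 had far fewer counts than the strand they pair with, and miR-3120 lay between the arms of miR-214. The rat name miR-3074, opposite miR-24, had 2, 16 and 20 counts in r1, r2 and r4, where miR-24-3p had 10392, 26748 and 25757. In mouse miR-3074-5p had 179, 229 and 183 counts and miR-3074-1-3p had 35, 27 and 23. Joined to miR-3074-5p the rat name was lower (log2 difference -4.11 ± 0.36), a name that passed the filter through mouse alone, so its call is not given. The mouse 3p counts lay above the rat counts too, by less, and the rat name gives no arm. The partner miR-24-3p, a widely expressed miRNA, differed by -0.57 ± 0.17 (edgeR adjusted p = 0.0201). Opposite miR-338, a miRNA of glia and neurons, miR-3065-5p had 7, 6 and 14 counts in rat and 3, 0 and 1 in mouse, a ratio of 7.52 (95% interval 2.62 to 29.6, exact binomial, counting error only). Its partner miR-338-3p had 273, 776 and 763 counts in rat and differed by -0.20 ± 0.20 between the species (edgeR adjusted p = 0.442). The rat name miR-3120, from the strand opposite miR-214, had 12, 15 and 9 counts in r1, r2 and r4, where miR-214-3p had 28, 23 and 29 and miR-214-5p had 0 in all 3. A further member, miR-3544, whose mouse hairpin lies opposite Mir337, had 1, 0 and 1 counts in r1, r2 and r4. Its mouse arms were at 0 in every library, and miR-337 was not compared here.

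Of the 11 shared members below the filter, 4 were at 0 in all 6 libraries (miR-1199-3p, miR-1199-5p, miR-1896 and miR-1912-5p). For miR-7578, exonic in Brd3 in mouse, the mouse libraries were at 0 and the rat libraries at 2, 9 and 12 counts, at least 8.54-fold higher against a floor of 3 counts over the mouse group. The name miR-3552, within an Htr2c intron in mouse, had 8 counts over the rat libraries, 7 of them in r4, and 1 over the mouse libraries. For miR-1949 the sums were 9 and 10, miR-3065-5p is described above, and miR-1188-3p, miR-3065-3p and miR-5132-3p had at most 3 counts in either species.

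The balance of the arms was compared by the log2 ratio of 5p to 3p counts, which does not depend on library scaling. Over the 232 hairpins with both arms in both tables, 169 had at least 50 counts in every library, and limma called 24.3% of them. All 7 of the high-numbered hairpins that qualified were examined, and 4 were called. In miR-3068 the arms were even in mouse (5p share 49.5%, 50.8% and 49.2% in m1, m3 and m4) and the 3p arm led in rat (5p share 26.96%, 33.50% and 31.04% in r1, r2 and r4). The log2 ratio differed by -1.18 ± 0.20 (limma adjusted p = 0.00766), a shift of the balance towards the 3p arm in rat. In miR-3064 the 5p share was 91.9% ± 2.81 (SD, n = 3) in mouse against 77.3% ± 2.04 for rat (difference -1.71 ± 0.29; limma adjusted p = 0.00766).

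The miR-1843 hairpins shifted in opposite ways. For miR-1843a the 5p share was 95.5% ± 0.570 in mouse and 89.8% ± 1.43 in rat (difference of the log2 ratio -1.28 ± 0.22; limma adjusted p = 0.00766). For miR-1843b it was 88.3% ± 0.600 in mouse against 98.3% ± 0.353 for rat (SD; difference 2.92 ± 0.22; limma adjusted p = 0.000437). The limit stated above on how reads shared by the a and b names were counted holds here too. Not called were miR-1306 (-0.93 ± 0.36; limma adjusted p = 0.125), miR-1247 (0.18 ± 0.39; 0.788) and miR-1839 (0.27 ± 0.53; 0.762). In the last, r1 had the highest ratio of all libraries, and without r1 the difference was -0.32.

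**Figure D5:**
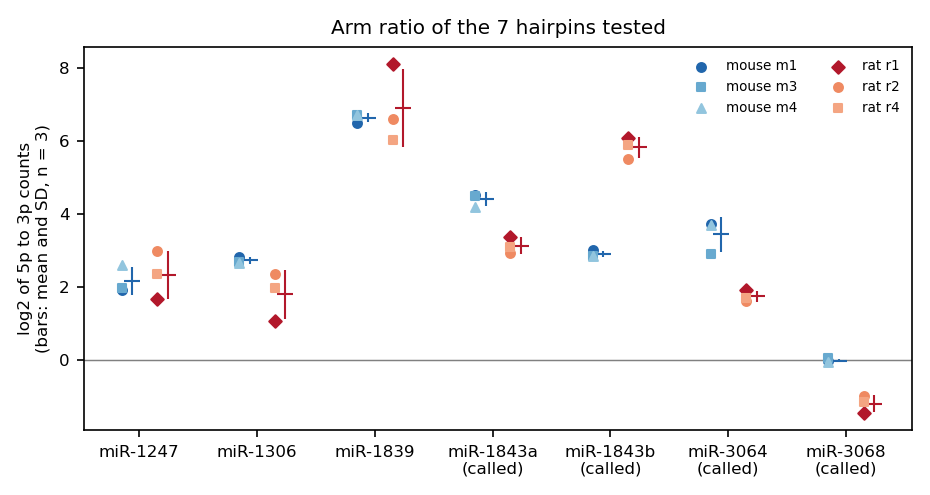
Log2 ratio of 5p to 3p counts (y axis) for the 7 hairpins tested, 1 point per library (blue mouse, red rat), with the mean and SD of each species beside the points (n = 3). The mouse and rat libraries are fully apart for miR-1843a, miR-1843b, miR-3064 and miR-3068, and miR-3068 is at about 0 in mouse and below 0 in rat.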

How the data were processed

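Small RNA libraries, 3 from mouse retinas and 3 from rat retinas, were read on a HiSeq-2500, per the labels' protocols. These protocols speak of rat eyes even for the mouse libraries. The deposited tables, 1 per species, hold unnormalized counts by mature miRNA name. Not given in the sources used here were the trimming, aligner, miRNA release and treatment of multiply matching reads. Column names (m1, m3, m4, r1, r2, r4) do not match the labels' replicate numbers, so columns were assigned to species only.

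Names were joined after removing the species prefix (542 names) and fitted with edgeR 4.0.16 in R 4.3.3: filterByExpr, TMM, glmQLFit and glmQLFTest with species as the only term, Benjamini-Hochberg over all 398 names kept. The standard error is the log2 difference divided by the root of F. Arm ratios, log2((5p + 0.5)/(3p + 0.5)), were fitted with limma 3.58.1 for hairpins with at least 50 counts in every library. Intervals of summed counts are exact binomial (scipy 1.17.1). The tests were checked on simulated counts. Mouse loci and sequences are from RefSeq (GRCm38.p6) and GENCODE M21, used for mouse only.

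Alternatives were DESeq2 1.42.0, library totals, TMM on all names, no filter, looser names, other arm settings and leaving out each library. Looser names joined a rat name to the mouse name that differs by the letter a, or, where the rat name has no arm, to the leading mouse arm if its counts were at least 10-fold those of the other. Named miRNAs were the 10 most abundant members, every called member, the 5 most abundant without a mouse row, every hairpin in the arm test, partners on the opposite strand and 2 short lists (mirtrons and Htr2c introns); others were named after their values were seen. The members, lists and tests were chosen with earlier results of these data known.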

Additional observations from a re-analysis of the deposited data

How the results depend on the processing

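No paired analysis was possible because the table columns carry numbers that do not match the labels' replicate numbers. Detection depends on the limit: 64 names reached 1 count and 18 reached 100 in each rat library, against 40 at 10. With miR-1843a and miR-1843b summed by arm, 1 member stayed called lower in place of 3 (7 called in all). Over DESeq2, other scalings, no filter, looser names and leave-one-out, 8 to 12 of the 17 members tested were called, and 4 arm ratios were called under each arm alternative but the stricter minimum of 200 counts, which left miR-3064 and miR-1247 untested and 3 called. Of 204 recomputed differences of single members, 189 kept their direction and their side of the threshold, 6 lost a call and 7 gained one. In 2 the sign turned, neither called: miR-1306-5p at 0.053 with library totals, and miR-3064-5p, which ran from -0.11 (without r1) to 0.22 when 1 library was left out. Of 68 recomputed arm differences 66 kept both. The miR-1839 arm difference ran from -0.32 to 0.71 and that of miR-1247 from -0.15 to 0.51 when 1 library was left out, neither called; the cause was not tested. The difference of miR-1912-3p, with 2 counts in mouse, ran from 3.90 to 7.18 when 1 library was left out. Rat sequences were not used here, so the planned match of rat to mouse sequences was not run. Names near the limit of 3 counts (at most 0.1241 CPM) cannot be told from absent at this depth.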
